A study of Homo sapiens with 6 samples.

Results

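The genes described here encode myosin heavy chains: the cardiac chains MYH6 and MYH7, the slow-tonic chain MYH7B, the developmental skeletal chains MYH3 and MYH8, and the non-muscle chains MYH9, MYH10 and MYH14. They were taken by gene symbol from count tables that listed 38557 genes, and all 8 were found. Of these, 7 were among the 16107 genes with enough counts to be tested, and MYH8 had no count in any library. Expression was measured by RNA sequencing of cardiomyocytes differentiated from WTC11, a widely used human induced pluripotent stem cell line, so that all libraries share 1 genetic background and all are labelled WT. The cells had been kept in RPMI plus B27, a basal medium with a serum-free supplement, or in DMEM plus fatty acids, with 3 libraries per medium that the labels number as biological replicates 1 to 3. How long the cells were in each medium, what else the media held and whether the replicates were separate differentiations are not given in the sources used here, and p-values therefore measure the spread between these cultures.

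Myosin heavy chains are the motors of muscle and of the cytoskeleton: a globular head hydrolyses ATP and pulls on actin, and a long coiled-coil tail packs the molecules into filaments. In heart muscle the thick filament is built from the alpha chain (MYH6), which has the faster ATPase and predominates in atria, and the beta chain (MYH7), which is slower and predominates in the adult human ventricle and in slow skeletal fibres. The balance of these chains responds to thyroid hormone, developmental stage and load, and MYH7 mutations are a common cause of hypertrophic cardiomyopathy. The non-muscle chains work in cell division, adhesion and the cell cortex, and are expressed in nearly every cell type.

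MYH6 and MYH7 lie in tandem on the minus strand of chromosome 14 in GRCh38, the assembly also called hg38. MYH6 spans chr14:23381990-23408277 with 39 exons in its longest coding transcript model of GENCODE v29, and MYH7 spans chr14:23412738-23435718 with 40 exons. The gap between them is 4460 bases. MYH7B spans chr20:34975403-35002437 on the plus strand, MYH3 chr17:10628526-10657309 and MYH8 chr17:10390322-10421950 on the minus strand. Of the non-muscle genes, MYH9 spans chr22:36281277-36388067 and MYH10 chr17:8474205-8630761 on the minus strand, and MYH14 spans chr19:50188186-50310544 on the plus strand. On the opposite strand GENCODE v29 places, among others, TRPC4AP over MYH7B and NDEL1 over MYH10, whose levels are given below. It also places AL132855.1 over MYH7, AC008655.1 over MYH14, and AC005323.2 and MYHAS over MYH8, which were not analysed here. The strand setting of the counting is not given in the sources used here, so reads of overlapping genes may not have been told apart. Coding lengths are close to each other, from 5805 bases in MYH7 to 6108 in MYH14.

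How well counts separate MYH6 from MYH7 depends on how alike their messages are. In a pairwise alignment of the coding sequences, MYH6 and MYH7 were identical at 91.2% of aligned bases, against 79.7% for MYH3 and MYH8, 73.6% for MYH9 and MYH10, and 63.0% for MYH6 and MYH9. Exact matches of 50 bases to MYH7 made up 14.8% of the windows of the MYH6 transcript, and exact matches of 150 bases made up 4.25%. No window of 150 bases was shared between any other pair of members. The longest identical run, 395 bases, lies in the tail-encoding part, at coding positions 3340 to 3734 of MYH6 (exons 25 to 27) and 3334 to 3728 of MYH7 (exons 26 to 28). A read that falls wholly inside such a run cannot be assigned to either gene. The first 60 bases of that run, and the 60 bases in which the coding sequences were least alike, are shown because they mark where reads cannot and where they can tell the genes apart. Capitals mark the 23 bases that differ, the sequences run 5′ to 3′ on the coding strand, and the intervals include an intron. The least-alike stretch is at chr14:23392620-23392938 (minus strand, exons 24 and 25) in MYH6 and at chr14:23421016-23422206 (minus strand, exons 25 and 26) in MYH7, and the shared run begins 55 bases after it.
MYH6 and MYH7, shared: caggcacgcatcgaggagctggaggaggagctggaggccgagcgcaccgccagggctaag
MYH6, least alike: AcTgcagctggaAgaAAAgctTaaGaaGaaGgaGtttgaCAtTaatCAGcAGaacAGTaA
MYH7, least alike: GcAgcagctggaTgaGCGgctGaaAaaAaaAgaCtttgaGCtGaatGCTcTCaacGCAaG

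The 3 genes MYH6, MYH7 and MYH7B also carry microRNAs in their introns, the group known for its part in myosin isoform control. In RefSeq (GRCh38.p14), miR-208a-3p lies in intron 29 of MYH6 at chr14:23388602-23388623 (minus strand), miR-208b-3p in intron 30 of MYH7 at chr14:23417997-23418018 (minus strand), and miR-499a-5p in intron 20 of MYH7B at chr20:34990408-34990428 (plus strand). The mature sequences are shown because the hosts are the genes described here, with the seed (bases 2 to 8) in capitals. The miR-208 pair shared a seed and differed at 3 of 22 bases.
hsa-miR-208a-3p: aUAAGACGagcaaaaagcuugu
hsa-miR-208b-3p: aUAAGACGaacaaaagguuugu
hsa-miR-499a-5p: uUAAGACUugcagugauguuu
The libraries were made with an mRNA kit, so mature microRNAs were not measured. The MIR208A and MIR208B entries held 1 to 6 and 1 to 21 counts per library, MIR499A held 0, and MHRT, an antisense non-coding RNA of the MYH7 locus, held 0 to 7. None of these entries had enough counts to be tested.

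Libraries held 23232324 to 31035389 gene counts. At that depth a gene with 0 counts could have been present at up to 0.0889 to 0.129 CPM, the worth of 3 counts (CPM here are counts divided by TMM-scaled library sizes). All 12 cardiomyocyte markers examined, among them TNNT2, ACTN2 and NKX2-5 had enough counts to be tested. Across all genes, 219 of 16107 (1.36%) passed edgeR's quasi-likelihood test at a Benjamini-Hochberg adjusted p under 0.05, and 2848 (17.7%) had an unadjusted p under 0.05. Libraries with the same replicate number deviated together from the means of their media, and a fit that adds the replicate number as a block called 770 genes (4.78%). DESeq2 called 1214 of 18077 genes (6.72%). The CPM values of the media did not overlap for 4120 of the 16107 genes (25.6%).

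MYH6 message was higher and MYH7 message lower in DMEM plus fatty acids, and the predominant cardiac chain differed between the media. MYH7 held more of the pair's counts in every RPMI plus B27 library, and MYH6 held more in every DMEM plus fatty acids library. MYH7B was higher in DMEM plus fatty acids in each of the 3 pairs of libraries with the same number. The non-muscle chains MYH10 and MYH14 had smaller differences in opposite directions, and MYH9 had none that stood out from the spread. None of the 7 tested members passed edgeR's test over all genes, against 1.36% of all genes. In the fit with the replicate block, MYH7 (lower) and MYH7B (higher) passed, against 4.78% of all genes. DESeq2 called MYH6 (higher) and MYH7 (lower), against 6.72% of all genes. Unadjusted p was under 0.05 for MYH7, MYH14, MYH6 and MYH10, against 17.7% of all genes. The media did not overlap for the same 4 genes, against 25.6% of all genes.

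**Figure D1:**
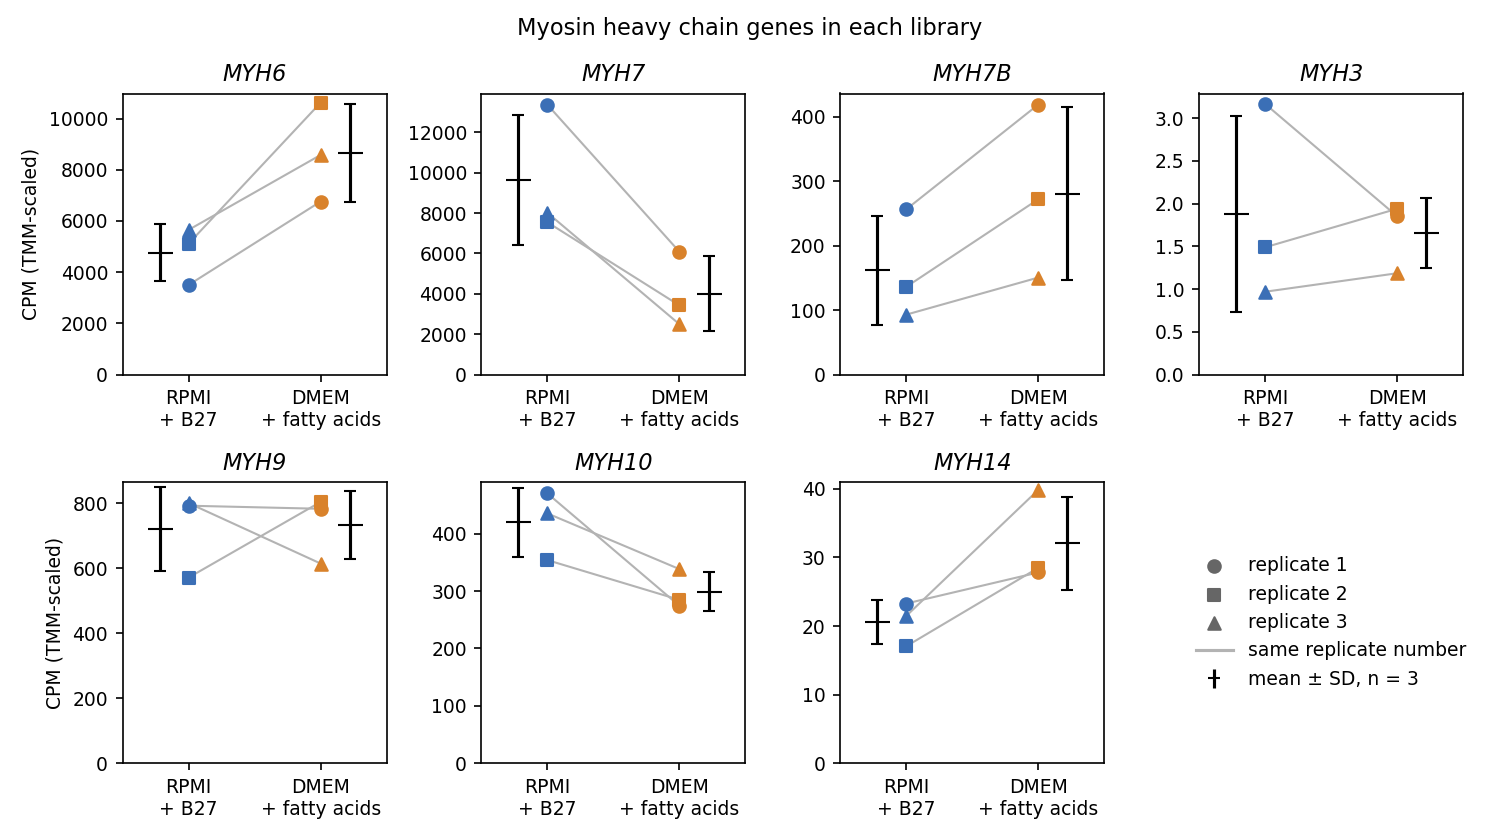
TMM-scaled CPM (vertical axes, each from 0) of the 7 detected members in each library of RPMI plus B27 (blue) and DMEM plus fatty acids (orange), with grey lines joining libraries of the same replicate number and black bars giving mean ± SD of 3 libraries. MYH6, MYH7B and MYH14 were higher in DMEM plus fatty acids along all 3 lines, and MYH7 and MYH10 were lower along all 3. The lines of MYH9 and MYH3 did not share a direction.

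MYH6 encodes the alpha chain. Its level was 3504, 5119 and 5653 CPM in RPMI plus B27 (replicates 1 to 3) and 6759.5, 10620.1 and 8578 CPM in DMEM plus fatty acids. The lowest DMEM plus fatty acids library lay above the highest RPMI plus B27 library, so the media did not overlap. The means were 4758 ± 1119 and 8653 ± 1931 CPM (SD, n = 3). The log2 fold change, positive where DMEM plus fatty acids was higher, was 0.86 ± 0.27 (SE), with an adjusted p of 0.166 in edgeR. With the replicate block it was 0.87 ± 0.22 with an adjusted p of 0.0797. DESeq2 gave an adjusted p of 0.0236, and over 12 alternative fits the adjusted p ran from 0.0236 to 0.396. MYH6 was higher within each pair of same-numbered libraries, by 0.95, 1.05 and 0.60 on the log2 scale.

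MYH7 encodes the beta chain. In RPMI plus B27 it stood at 13359, 7544 and 8011 CPM, and in DMEM plus fatty acids at 6082, 3427 and 2493 CPM. Replicate 1 was the highest library in both media, and even so the media did not overlap. The means were 9638 ± 3231 and 4000.5 ± 1862 CPM (SD, n = 3), a log2 fold change of -1.27 ± 0.39 (edgeR adjusted p 0.163). With the replicate block, which removes the shared height of replicate 1, the fold change was -1.32 ± 0.23 and the edgeR adjusted p 0.0359. DESeq2 gave an adjusted p of 0.0140. Within same-numbered pairs the log2 differences were -1.14, -1.14 and -1.68. Without RPMI plus B27 replicate 1 the log2 fold change was -0.96 (edgeR adjusted p 0.310). Leaving out DMEM plus fatty acids replicate 1 gave -1.70 (adjusted p 0.115).

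The share of MYH7 in the counts of MYH6 plus MYH7 needs no scaling between libraries. It was 79.2%, 59.6% and 58.6% in RPMI plus B27 and 47.4%, 24.4% and 22.5% in DMEM plus fatty acids. Every RPMI plus B27 library lay above 50% and every DMEM plus fatty acids library below it, with replicate 1 the highest in each medium. The 95% Wilson intervals of these shares were at most 0.358 percentage points wide and cover counting error only. Mean shares were 65.8 ± 11.6% and 31.4 ± 13.8% (SD, n = 3), a difference of -34.4 percentage points with a two-sided exact permutation p of 0.1, the smallest that 3 against 3 libraries can give. Within same-numbered pairs the differences were -31.9, -35.2 and -36.1 points, which lie closer together than the libraries of either medium. A two-sided exact sign-flip test of those pairs gave p = 0.25, the smallest that 3 pairs allow. With any 1 library left out the difference stayed between -42.4 and -27.7 points. Dividing the counts by coding length gave -34.4 points as well.

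**Figure D2:**
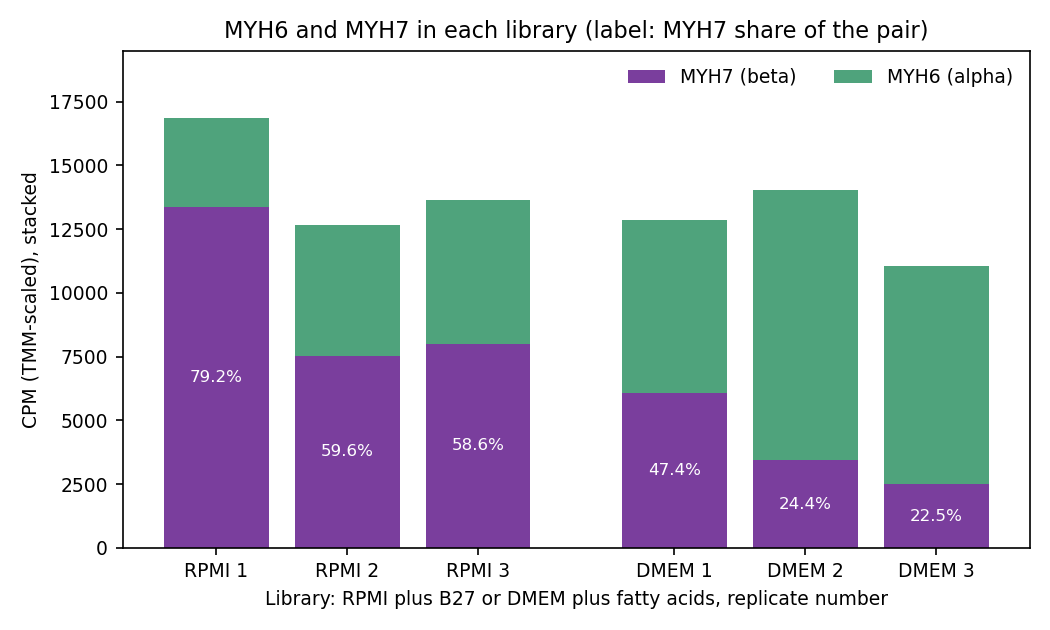
Stacked TMM-scaled CPM of MYH7 (purple) and MYH6 (green) in each of the 6 libraries, with the MYH7 share of the pair's counts printed in each bar. The purple part makes up 58.6% to 79.2% of the bars in RPMI plus B27 and 22.5% to 47.4% in DMEM plus fatty acids, while the heights of the bars overlap.

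The summed level of both cardiac chains differed less than the share did. MYH6 plus MYH7 came to 14397 ± 2194 CPM in RPMI plus B27, compared with 12653 ± 1497 CPM for DMEM plus fatty acids (SD, n = 3; two-sided exact permutation p = 0.5). The ranges overlapped, at 12663 to 16863 and 11071 to 14047 CPM. Within same-numbered pairs the sum differed by -4022, 1384 and -2593 CPM. The mean difference of -1744 CPM was -510.5 CPM without RPMI plus B27 replicate 1 and -2611 CPM without replicate 2. For all 8 members the sums were 15723 ± 2412 and 14001 ± 1639 CPM (exact permutation p = 0.5), and the difference ran from -379 to -2712 CPM without those same libraries. In bulk RNA, fewer cells of a type and less RNA per cell cannot be told apart.

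Cardiomyocyte markers give a scale for these genes within the same libraries. The summed level of the 12 markers, none of which is a myosin heavy chain, was 22615 to 29003 CPM in RPMI plus B27 and 13204 to 21405 CPM in DMEM plus fatty acids, without overlap. ACTC1, cardiac alpha-actin, was the main part of that difference, at 7765 to 10597 and 1418 to 6573 CPM (log2 fold change -1.13 ± 0.50, edgeR adjusted p 0.298). Without ACTC1 the sums of the other 11 overlapped, at 14849 to 18406 and 11785 to 16810 CPM. Singly, 8 of the 12 had lower and 4 higher fitted levels (median log2 fold change -0.21, against 0.01 over all genes), the higher ones being TNNT2, MYBPC3, RYR2 and TNNI3 (0.01 to 0.33). None passed edgeR's test (2 at unadjusted p under 0.05), 2 passed with the replicate block, and DESeq2 called 2. Over all genes these shares were 1.36%, 17.7%, 4.78% and 6.72%. Those passing with the block were ACTN2, the Z-disc crosslinker alpha-actinin 2 (log2 fold change -1.05 ± 0.21, adjusted p 0.0494), and CSRP3, a Z-disc LIM protein (-1.39 ± 0.15, adjusted p 0.0142), both lower.

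MYH6 stood at 1.90 ± 0.56 log2 units above the mean of the 12 cardiomyocyte markers in RPMI plus B27 and at 3.15 ± 0.58 above it in DMEM plus fatty acids (SD, n = 3). The difference was 1.25 (two-sided exact permutation p = 0.1, the smallest possible), and same-numbered pairs gave 1.22, 1.28 and 1.24. MYH7 stood at 2.90 ± 0.31 and 1.96 ± 0.34 on this scale, a difference of -0.94 (exact permutation p = 0.1), with -0.87, -0.91 and -1.05 within pairs. The directions of MYH6 and MYH7 were thus also seen against cardiomyocyte markers of the same libraries, without overlap between media. Of the 12 markers 8 had lower fitted levels themselves, so the difference for MYH6 reflects in part the fall of the markers. Without the markers, its pairs differed by 0.95, 1.05 and 0.60, and those of MYH7 by -1.14, -1.14 and -1.68. With the median of the list in place of its mean, the differences were 1.50 for MYH6 and -0.69 for MYH7.

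MYH7B encodes a slow-tonic chain of extraocular and spindle muscle. Only its message was measured here, and whether these cells make the chain was not tested. The message was at 257, 136 and 93.1 CPM in RPMI plus B27 and at 419, 272 and 151 CPM in DMEM plus fatty acids. The media overlapped, because replicate 1 of RPMI plus B27 exceeded replicate 3 of DMEM plus fatty acids, and in both media replicate 1 was highest and replicate 3 lowest. The means were 162 ± 84.7 and 281 ± 134 CPM (SD, n = 3), a log2 fold change of 0.79 ± 0.45 (edgeR adjusted p 0.410). With the replicate block the estimate was 0.80 ± 0.12, with an edgeR adjusted p of 0.0251. Same-numbered pairs differed by 1.63-fold, 2.00-fold and 1.62-fold. DESeq2, fitted without the block, gave an adjusted p of 0.346. Leaving out 1 library at a time moved the unblocked log2 fold change between 0.38 (without DMEM plus fatty acids replicate 1, edgeR adjusted p 0.744) and 1.29 (adjusted p 0.253), the latter when RPMI plus B27 replicate 1 was left out. TRPC4AP, on the opposite strand, was at 174 ± 17.8 CPM in RPMI plus B27 and 149 ± 1.92 CPM in DMEM plus fatty acids, the opposite direction, with an edgeR adjusted p of 0.375.

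MYH7 and MYH7B were the only detected members with replicate 1 highest in both media. MYH6 was lowest in replicate 1 in both media.

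Of the developmental skeletal chains, MYH3 was low and MYH8 was not detected. MYH3, the embryonic chain, had 84, 35 and 26 counts in RPMI plus B27 and 43, 58 and 40 in DMEM plus fatty acids, or 1.87 ± 1.15 and 1.66 ± 0.412 CPM (SD, n = 3). The media overlapped, and the log2 fold change of -0.18 ± 0.47 (edgeR adjusted p 0.875) was smaller than its error. Without RPMI plus B27 replicate 1, the highest library, it was 0.43 (adjusted p 0.630). MYH8, the perinatal chain, had 0 counts in all 6 libraries, which allows at most 0.0889 to 0.129 CPM. MYH1, MYH2, MYH4 and MYH13, chains of mature skeletal and extraocular muscle, and MYH16, a pseudogene in humans, held 0 to 9 counts per library and were not tested.

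Most other skeletal muscle markers were low as well. Of 14, only 5 had enough counts to be tested, and the myogenic factors MYOD1, MYF5 and PAX7 had 0 counts in all 6 libraries. The summed level of the list, carried by the alpha-actin ACTA1 and muscle creatine kinase CKM, which heart muscle also expresses, was 601 to 1236 CPM in RPMI plus B27 and 695 to 1044 CPM in DMEM plus fatty acids. None passed edgeR's test without the block (3 at unadjusted p under 0.05, DESeq2 3). Over all genes these shares were 1.36%, 17.7% and 6.72%, and 4.78% passed with the block. With the block CKM was higher (log2 fold change 0.69 ± 0.13, adjusted p 0.0438) and TNNT1, slow skeletal troponin T, lower (-1.25 ± 0.11, adjusted p 0.00823).

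MYH9, the chain of non-muscle myosin IIA, had 793, 572 and 801 CPM in RPMI plus B27 and 784, 805 and 615 CPM in DMEM plus fatty acids. The libraries of the media were interleaved. The means of 722 ± 130.1 and 734 ± 104 CPM (SD, n = 3) gave a log2 fold change of 0.02 ± 0.19, with an edgeR adjusted p of 0.958. Same-numbered pairs differed by -0.02, 0.49 and -0.38 on the log2 scale, so the pairs did not share a direction.

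MYH10, the chain of non-muscle myosin IIB, which is also found in nascent myofibrils, stood at 470.1, 354 and 435 CPM in RPMI plus B27 and at 274, 285 and 338 CPM in DMEM plus fatty acids. All 3 DMEM plus fatty acids libraries lay below all 3 of RPMI plus B27. The means were 419.8 ± 59.6 and 299 ± 34.4 CPM (SD, n = 3). The log2 fold change of -0.49 ± 0.16 did not pass in any of the fits, with an adjusted p of 0.172 in edgeR, 0.107 with the block and 0.0799 in DESeq2. NDEL1, which overlaps the locus on the opposite strand, had 29.9 ± 5.97 and 22.2 ± 3.51 CPM.

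MYH14, the chain of non-muscle myosin IIC, was the lowest of the non-muscle genes. Its values were 23.3, 17.1 and 21.5 CPM in RPMI plus B27 and 27.8, 28.5 and 39.9 CPM in DMEM plus fatty acids. The media did not overlap, and replicate 3 of DMEM plus fatty acids stood above the other libraries. The means of 20.6 ± 3.20 and 32.1 ± 6.77 CPM (SD, n = 3) gave a log2 fold change of 0.64 ± 0.20. The adjusted p was 0.165 in edgeR, 0.0827 with the replicate block and 0.0696 in DESeq2.

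**Figure D3:**
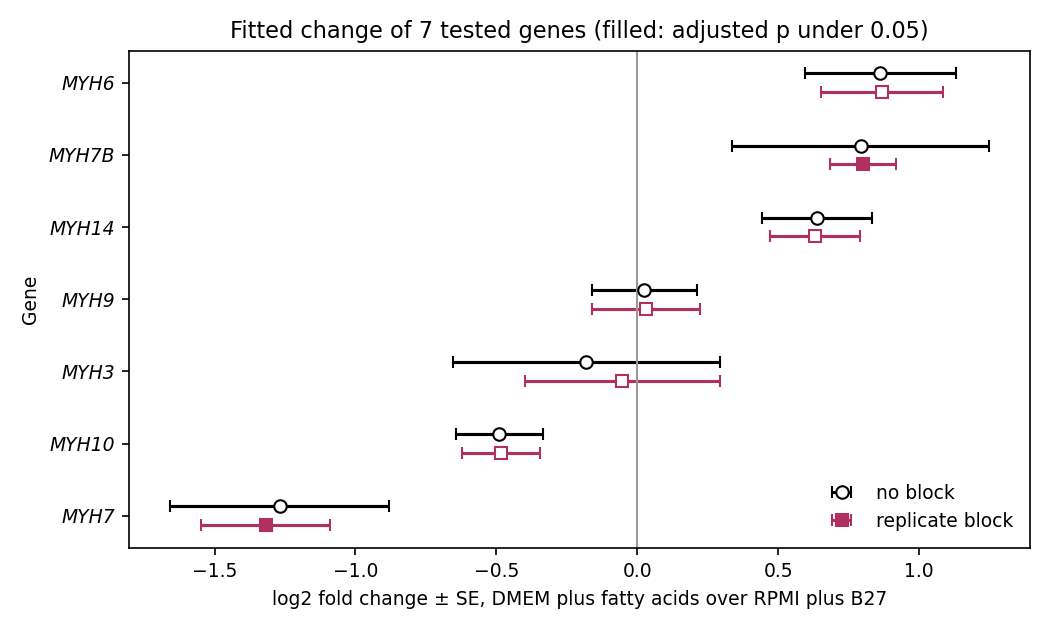
Fitted log2 fold change ± SE (horizontal axis, positive where DMEM plus fatty acids was higher) of the 7 tested members without (black circles) and with (red squares) the replicate number as a block, filled where the adjusted p was under 0.05. Only MYH7 at -1.32 and MYH7B at 0.80, both in the fit with the block, are filled, and the bar of MYH7B shortens from an SE of 0.45 to 0.12.

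MYH9 made up 62.8%, 61.8% and 64.8% of the counts of MYH9 plus MYH10 in RPMI plus B27 and 74.1%, 73.9% and 64.5% in DMEM plus fatty acids. Replicates 1 and 2 of DMEM plus fatty acids were above every RPMI plus B27 library, while replicate 3 was among them. The mean difference was 7.71 percentage points (two-sided exact permutation p = 0.2), and the 95% Wilson intervals were at most 1.29 points wide. Within same-numbered pairs the differences were 11.3, 12.1 and -0.277 points.

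Markers of stromal and smooth muscle cells, which also express non-muscle myosin, were lower in DMEM plus fatty acids. Of 14 tested fibroblast and stromal markers, 13 had lower fitted levels in DMEM plus fatty acids. In edgeR's test 7 passed, all lower (10 with the block). Over all genes 1.36% passed, and 4.78% with the block. The median log2 fold change of the list was -2.96, and its summed level was 4365 to 8612 CPM in RPMI plus B27 and 762 to 1964 CPM in DMEM plus fatty acids. COL1A1, a collagen I chain, fell by 2.72 on the log2 scale (SE 0.38, edgeR adjusted p 0.0338). DCN, the proteoglycan decorin, had 0 counts in DMEM plus fatty acids replicate 1, and FAP had too few counts to be tested. Of 8 smooth muscle markers 3 passed, all lower, namely LMOD1, CALD1 and TPM2 (4 with the block). The sum of all 8 was 2471 to 3219 CPM in RPMI plus B27 and 784 to 1679 CPM in DMEM plus fatty acids. Of 5 testable epicardial markers KRT8 passed, lower. With the block TBX18 passed too, also lower (log2 fold change -2.10 ± 0.32, adjusted p 0.0271). Each of the 11 calls made without the block was lost with at least 1 library left out. The highest edgeR adjusted p was then 0.0958 (LMOD1) to 0.139 (POSTN). Of 2 testable endothelial markers none passed without the block in edgeR. TEK, near the detection limit at 0.485 to 1.13 and 0.1003 to 0.258 CPM, was lower, with an unadjusted p under 0.05 and a DESeq2 adjusted p of 0.0376 (log2 fold change -2.13 ± 0.51, edgeR adjusted p 0.0960). KDR, at 27.5 to 239 and 115 to 463 CPM, was higher and passed with the block (log2 fold change 1.49 ± 0.21, adjusted p 0.0245). PECAM1, CDH5, VWF and ERG had too few counts to be tested.

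The stromal list had a median log2 fold change of -2.96, against 0.02 for MYH9 and -0.49 for MYH10. Both genes thus stood higher against the stromal markers in DMEM plus fatty acids. The ratios and their p-values reflect the fall of the markers, not a rise of MYH9 or MYH10. In DMEM plus fatty acids TCF21 (0.0334 to 0.385 CPM) and DCN (0 counts in replicate 1) were near or below detection. The log2 ratio of MYH9 to the mean of those markers was 3.57 ± 0.81 in RPMI plus B27 as against 6.36 ± 0.55 in DMEM plus fatty acids, and that of MYH10 was 2.80 ± 0.74 and 5.06 ± 0.37 (SD, n = 3; two-sided exact permutation p = 0.1 each, the smallest possible). The difference for MYH9 was 4.07, 2.86 and 1.42 in pairs 1, 2 and 3, and that for MYH10 was 3.31, 2.05 and 1.44. The part of the stromal and smooth muscle cells in the level of MYH10 was not tested.

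MYH11, the smooth muscle chain and no member of the set, belongs to the smooth muscle list. It was at 81.2, 55.3 and 18.2 CPM in RPMI plus B27 and 19.0, 45.7 and 4.42 CPM in DMEM plus fatty acids, with a log2 fold change of -1.16 ± 0.80 (edgeR adjusted p 0.496; 0.0880 with the block). It ran from -0.66 without DMEM plus fatty acids replicate 3 to -2.14 without replicate 2 of that medium. The media overlapped, and the pairs differed by -2.09, -0.27 and -2.02 on the log2 scale. MYH15 held 13 to 50 counts per library, with a log2 fold change of 0.32 ± 0.48 (adjusted p 0.773).

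Levels of different genes were compared as CPM per kilobase of coding sequence. In RPMI plus B27 the order was MYH7 at 1660.3 ± 557, MYH6 at 818 ± 192, MYH9 at 123 ± 22.1, MYH10 at 69.7 ± 9.90, MYH7B at 27.2 ± 14.2, MYH14 at 3.37 ± 0.524 and MYH3 at 0.322 ± 0.197 (SD, n = 3), with no overlap between neighbours. In DMEM plus fatty acids the first places were exchanged, with MYH6 at 1487 ± 332 (1162 to 1826) and MYH7 at 689 ± 321 (429 to 1048). MYH9 followed at 125 ± 17.7, MYH10 at 49.7 ± 5.71, MYH7B at 47.2 ± 22.6, MYH14 at 5.25 ± 1.11 and MYH3 at 0.285 ± 0.0708. There MYH10 (45.5 to 56.2) and MYH7B (25.3 to 70.4) overlapped, and their order cannot be given.

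Within the family of 8, MYH6 made up 31.3 ± 10.6% of counts in RPMI plus B27 as against 62.0 ± 12.9% in DMEM plus fatty acids, and MYH7 60.3 ± 10.7% and 28.3 ± 12.2%. MYH9 held 4.60 ± 0.639% and 5.24 ± 0.215%, MYH10 2.68 ± 0.193% and 2.17 ± 0.516%, and MYH7B 1.00 ± 0.387% and 1.97 ± 0.863%. MYH14 held 0.131 ± 0.0103% and 0.235 ± 0.0793%, MYH3 0.0115 ± 0.00540% and 0.0117 ± 0.00176%, and MYH8 0. Shares of MYH6, MYH7 and MYH14 did not overlap between media, with a two-sided exact permutation p of 0.1, the smallest possible, or 0.267 after Benjamini-Hochberg adjustment over the 8 members. Without DMEM plus fatty acids replicate 3 the difference in the MYH14 share went from 0.104 to 0.0580 percentage points, and without replicate 1 of that medium that of MYH7B went from 0.970 to 0.496. The permutation p was 0.2 for MYH7B and 0.3 for MYH9 and MYH10 (0.4 each after adjustment). The muscle chains together held 92.6 ± 0.841% and 92.4 ± 0.449% of the family's counts (exact permutation p = 0.6).

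The tested members spread to both sides of the genome-wide median. Fitted log2 fold changes ran from -1.27 for MYH7 to 0.86 for MYH6, 4 above 0 and 3 below it, with a median of 0.02 against 0.01 over all genes.

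Light chains stabilise the lever arm of the heavy chains. Of 6 sarcomeric light chain genes 4 were testable. Their log2 fold changes were -0.35 ± 0.79 for MYL2 (ventricular regulatory), 0.02 ± 0.18 for MYL3 (ventricular and slow essential), -0.15 ± 0.22 for MYL4 (atrial essential) and 0.00 ± 0.35 for MYL7 (atrial regulatory). None passed edgeR's test, with or without the block, none had an unadjusted p under 0.05, and DESeq2 called 0. The signs of these small values changed with 1 library left out. Among the 6 non-muscle and smooth muscle light chains, 5 had lower fitted levels (median -0.25). None passed without the block (2 at unadjusted p under 0.05, DESeq2 1). Over all genes 17.7% had an unadjusted p under 0.05, DESeq2 called 6.72%, and 4.78% passed with the block. MYL5 passed with the block, at 0.77 ± 0.14 (adjusted p 0.0369, against 0.0543 without), with 13.3 to 16.3 CPM in RPMI plus B27 and 24.7 to 24.8 CPM in DMEM plus fatty acids. MYL12A, a regulatory light chain of non-muscle myosin, was the other gene under unadjusted 0.05 (-0.57 ± 0.19, edgeR adjusted p 0.191).

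Proteins that bind the myosin tail in the thick filament were examined next. Of 11 such genes 8 were testable, 3 with higher and 5 with lower fitted levels (median -0.21). None passed edgeR's test, with or without the block, or DESeq2. An unadjusted p under 0.05 was found for 1, against 17.7% of all genes. The smallest p belonged to MYBPHL, a myosin-binding protein H-like gene of the atria, at -0.96 ± 0.36 (edgeR adjusted p 0.233), followed by MYOM1, an M-band crosslinker, at -0.49 ± 0.26 (adjusted p 0.372). MYBPHL was at -0.52 when RPMI plus B27 replicate 2 was left out, and MYOM1 at -0.27 when DMEM plus fatty acids replicate 3 was.

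Of 10 genes for the folding and turnover of myosin, 6 had higher and 4 lower fitted levels. FBXO32, the muscle ubiquitin ligase atrogin-1, rose in DMEM plus fatty acids. It went from 108, 107 and 82.3 CPM to 186, 165 and 209.9 CPM, without overlap, a log2 fold change of 0.92 ± 0.15 (edgeR adjusted p 0.0442; 0.0359 with the block). The call was lost with any 1 of the 6 libraries left out (0.80 to 1.00, adjusted p up to 0.123), and with a filter of at least 10 counts in every library (adjusted p 0.0553). SMYD1, a methyltransferase needed for thick filament assembly, had a log2 fold change of -0.37 ± 0.17, TRIM54 0.43 ± 0.21 and TRIM55 -0.38 ± 0.20 (MURF3 and MURF2, sarcomeric ubiquitin ligases; edgeR adjusted p 0.316, 0.327 and 0.372). With 1 library left out these ran from -0.45 to -0.23, from 0.26 to 0.61 and from -0.51 to -0.18, the smallest without DMEM plus fatty acids replicate 3 for SMYD1 and TRIM55 and replicate 1 for TRIM54.

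Transcription factors and cofactors known to act on MYH6 and MYH7 had fitted log2 fold changes from -0.87 to 0.67. Of 23 tested, 9 had higher and 14 lower fitted levels (median -0.12). None passed edgeR, edgeR with the block or DESeq2, while 6 had an unadjusted p under 0.05, against 17.7% of all genes. The media did not overlap for 7 of the 23 (30.4%, against 25.6% of all genes). MEF2C, a factor of the muscle gene programme, stood at 92.3 to 96.4 and 114 to 130.0 CPM, with a log2 fold change of 0.39 ± 0.10 (edgeR adjusted p 0.123). TEAD1 and TEAD2 are related factors that bind the same DNA motif. They had opposite signs, at -0.34 ± 0.11 and 0.40 ± 0.11 (adjusted p 0.180 and 0.125). PURB, a repressor of muscle genes, was at -0.39 ± 0.13 (adjusted p 0.184).

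Genes that switch non-muscle myosin on or off mostly had lower fitted levels. Of 20 listed, 19 were tested, 3 with higher and 16 with lower fitted levels (median -0.15, against 0.01 over all genes). None passed edgeR without the block or DESeq2, while 6 had an unadjusted p under 0.05, against 17.7% of all genes. With the block 3 passed, all lower, against 4.78% of all genes. These were MYLK, the myosin light chain kinase (-1.95 ± 0.35, adjusted p 0.0373), ANLN, the cytokinetic scaffold anillin (-0.60 ± 0.10, adjusted p 0.0359), and LIMCH1, an activator of non-muscle myosin II (-0.69 ± 0.12, adjusted p 0.0359). Among those with the smallest p without the block were SHROOM3, an actin-binding scaffold (-0.60 ± 0.20), DAPK3, a light chain kinase (-0.81 ± 0.29), and PPP1R12B, the striated muscle form of the myosin phosphatase targeting subunit (0.43 ± 0.17). The media did not overlap for 7 of the 19 tested genes (36.8%, against 25.6% of all genes), these 3 among them. For SHROOM3, DAPK3 and PPP1R12B edgeR's adjusted p was 0.193, 0.212 and 0.248. SHROOM3 and DAPK3 were at -0.46 and -0.53 without DMEM plus fatty acids replicate 3.

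**Figure D4:**
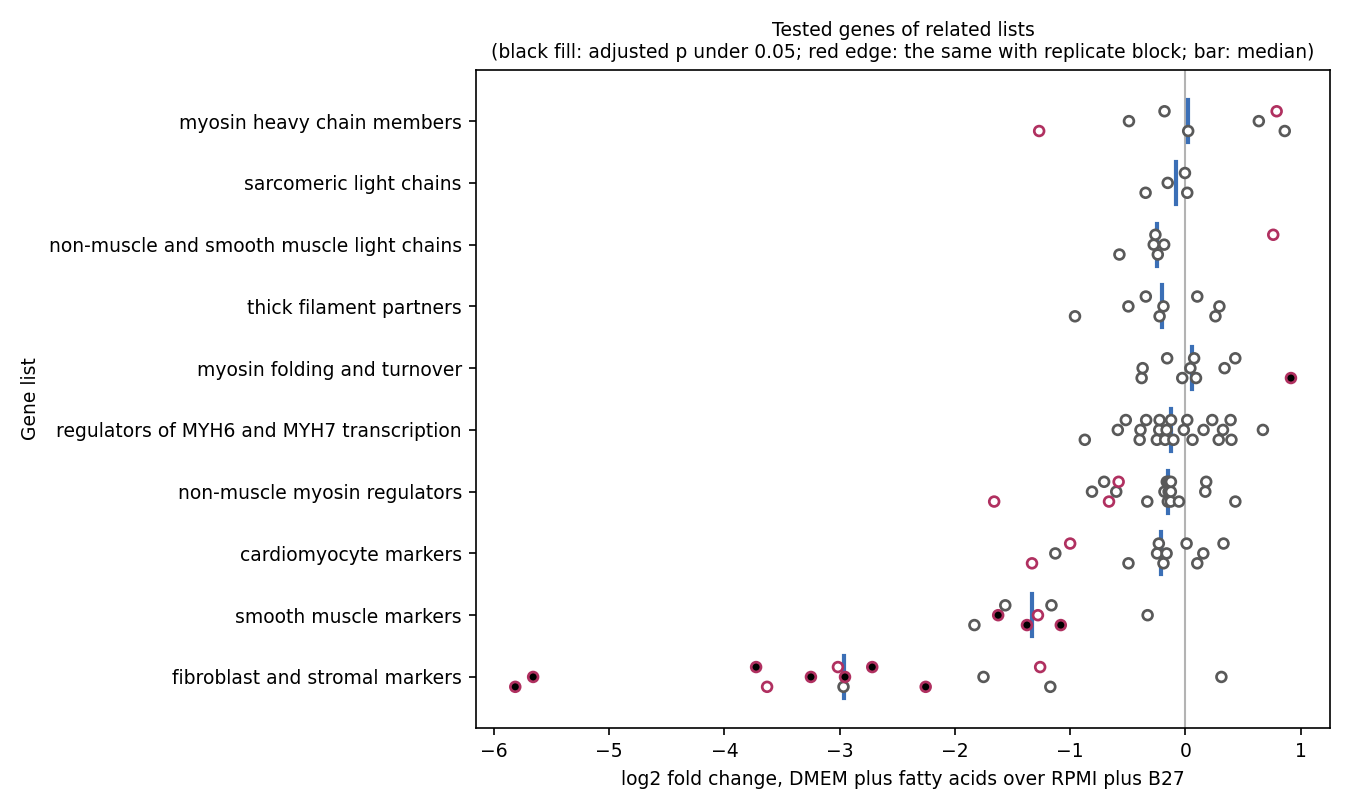
Fitted log2 fold change (horizontal axis, positive where DMEM plus fatty acids was higher) of every tested gene in the myosin heavy chain set and in 9 related lists, 1 circle per gene, filled black where edgeR's adjusted p was under 0.05, edged red where it was with the replicate block, with a blue bar at each list's median. The heavy chains spread from -1.27 to 0.86 around a median of 0.02, whereas the fibroblast and stromal markers have their median at -2.96.

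Genes whose profile over the 6 libraries lay nearest to MYH6 and MYH7 were found among the 10027 genes averaging 10 CPM or more, by the mean absolute difference of log2 CPM after centring each gene. Nearest to MYH6 were FGD4 (0.07), OSBPL11 (0.11), CMTM3 (0.12) and FAM241A (0.13). FGD4, a Cdc42 exchange factor, ran from 8.59, 12.4 and 14.0 CPM in RPMI plus B27 to 19.3, 24.9 and 22.1 CPM in DMEM plus fatty acids. Nearest to MYH7 were A4GALT (0.11), P4HA1 (0.12), CLIC5 (0.18) and TRIM9 (0.19). P4HA1, a collagen prolyl hydroxylase subunit, ran from 196, 126 and 115 CPM to 67.6, 49.9 and 35.2 CPM, with replicate 1 the highest in both media as for MYH7. These likenesses describe 6 libraries that share their media and replicate numbers, and since the genes were chosen for their profiles in them, no test of these genes is given.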

How the data were processed

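Messenger RNA of 6 cultures was sequenced, 3 kept in RPMI plus B27 and the other 3 in DMEM plus fatty acids. Per the labels' protocols, the library kit was stranded. The authors deposited raw counts by gene symbol for each library separately, without normalization. STAR, HTSeq and the build hg38 are named in the submitters' processing notes, and versions, annotation and strand setting are not given in the sources used here. Summary rows were kept out of the tests: reads in no gene were 5.44% to 7.57% of a library, ambiguous reads 3.90% to 4.15% and reads with several alignments 3.05% to 4.10%, so that reads shared by MYH6 and MYH7 may be missing.

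The quasi-likelihood test of edgeR 4.0.16 (R 4.3.3) was applied over all 6 libraries, after filterByExpr (minimum count 10, minimum total 15) and TMM scaling, with Benjamini-Hochberg adjustment over 16107 genes and a threshold of 0.05. CPM values are TMM-scaled. Each standard error was derived from the F statistic. Log2 ratios to marker lists used a prior count of 2. Single values were compared by exact permutation over libraries. The procedure was tested on simulated data. Alternatives were other scalings (RLE, library totals), 2 filters, DESeq2 1.42.0, each library left out, a prior count of 0.5, other denominators and the replicate block. The summed CPM of MYH6 plus MYH7 and of the members, with their alternatives, were added after seeing the data.

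Replicate numbers are shared between media. Deviations from the mean of the medium correlated at 0.31, 0.43 and 0.37 for the same number. Equal numbers were therefore taken as pairs in the replicate block, the differences within pairs and the sign-flip tests. The main edgeR test, DESeq2 and the permutation tests did not use the pairing. What the members of a pair share is not stated in the labels. Different numbers correlated at -0.24 to -0.14. Deviations cancel out within a medium, so these negative values are no separate sign of pairing.

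The members and lists were chosen with earlier results of these data known. Genes named are the members, the other myosin heavy chains, called genes of each list or otherwise up to 4 with the smallest p, and the 4 profiles nearest to MYH6 and to MYH7. Of these, 1 is not reported here. Outside this rule, and named after their values were seen, are TRPC4AP, NDEL1, genes called only with the block, and marker genes given as examples. Coordinates and coding sequences are from GENCODE v29 on GRCh38, aligned with Biopython 1.88, and microRNAs from RefSeq.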

Additional observations from a re-analysis of the deposited data

How the results depend on the processing

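Over 840 alternatives of 75 results, 712 kept direction and side of the threshold. Exact tests of shares, marker ratios and summed CPM cannot give a p under 0.1. For those results the side of the threshold was fixed in advance, and only the direction could change. The count of genes called was judged by its size instead. The count of genes called over the whole table, 219, was 217 with RLE scaling, 202 with library totals (74 higher and 128 lower, against 47 and 172), 539 without a filter, 119 with at least 10 counts in every library, 770 with the replicate block and 1214 with DESeq2. Leaving out 1 library gave 3 (without DMEM plus fatty acids replicate 3) to 131 (without RPMI plus B27 replicate 3). Scaling by library totals moved the median of all genes to 0.12. No member passed in any of the 6 fits that left out a library. Apart from MYH7 (block, DESeq2), MYH6 (DESeq2) and MYH7B (block), no member crossed the threshold in any alternative. With 1 library left out the log2 fold change ran from -0.49 to 0.43 for MYH3, -0.12 to 0.14 for MYH9, -0.16 to 0.67 for MYH15, -0.98 to 0.78 for MYL2, -0.17 to 0.12 for MYL3, -0.289 to 0.0201 for MYL4 and -0.28 to 0.27 for MYL7. The muscle chains' share differed by -0.721 to 0.0370 percentage points, and that of MYH3 by -0.00229 to 0.00308. MYL3 was at -0.000295 with the replicate block, and MYL7 at 0.0896 with library totals and 0.0108 without a filter. The cause of these changes was not tested. The replicate block left the pair share of MYH7 at -34.4 points (exact sign-flip p = 0.25) and changed no call of a named list gene beyond those given with the block in the report. MYH8, with 0 counts, was not detectable at this depth.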
